A study of Mus musculus with 16 samples.

Results

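The distal part of mouse chromosome 4 around Stmn1, the gene of the microtubule regulator stathmin, was followed gene by gene in RNA of cortical and hippocampal neurons. Members were the genes starting between 129468320 and 141028265 on chromosome 4 (mm10), that is from 5 Mb before the start of Stmn1 to 5 Mb after the start of Rpl11, which lies 1.56 Mb further along. A member needed at least 10 counts in at least 4 libraries. Rpl11, Sdhb, C1qa, C1qb and C1qc and 13 genes whose names begin with Gm were left out by name, Gmeb1 among the latter. Of 368 gene rows in this 11.56 Mb interval 170 were under the minimum, and 180 genes remained as members of 39179 gene rows in the files. Of these 180, 84 lie on the plus strand and 96 on the minus strand, and 172 are protein coding, 4 lincRNA and 2 antisense genes in GENCODE M21. The interval was picked because small unadjusted p-values for tamoxifen against control, averaged over cortex and hippocampus, had been frequent in it. Values of tamoxifen against control are therefore a description here, and support nothing.

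The samples came from adult mice labelled TERT-AD, of strain B6.129S6.SvEvTac, given tamoxifen or vehicle. The 4 groups were cortical neurons of control mice, cortical neurons of tamoxifen mice, hippocampal neurons of control mice and hippocampal neurons of tamoxifen mice, with 4 libraries each, and all groups share the TERT-AD label and the strain. The alleles behind that label, the promoter that drives them, the ages, the way neurons were isolated and which libraries share an animal are not stated in the labels. Counts of neighbouring libraries differed little and were added, which left 2 samples per group, A (libraries 1 and 2) and B (libraries 3 and 4). P-values then measure only the spread between these samples, which may be technical.

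Genes lie on a chromosome in an order that mostly does not follow their function, so a stretch of chromosome holds genes of many pathways. Neighbours may still share promoters, enhancers or chromatin domains, and they are inherited together. In brain, this stretch holds the microtubule regulator stathmin, the mitophagy kinase gene Pink1, receptors for serotonin, orexin and opioid peptides, the CaMKII inhibitor gene Camk2n1 and several genes of immune cells.

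Samples held 83527470 to 108293362 counts in genes. Level is given as CPM, counts scaled to the TMM library size, and level per length as RPKM. The excitatory neuron markers summed to 4920 to 8200 CPM, but those of other cells were high too, with oligodendrocyte markers at 21100 to 81500 CPM and astrocyte markers at 5860 to 8500 CPM. Cortical tamoxifen sample B stood apart from the other cortical samples. Mitochondrial transcripts made up 20.1 to 20.69% of the gene counts of its libraries and 29.68 to 32.08% in the other cortical libraries. Its oligodendrocyte markers summed to 21100 CPM, under the 61500 to 81500 CPM of its neighbours. That sum was mostly Mbp and Mobp, at 14400 and 5280 CPM. Mag and Mog of the same list, at 88.1 and 27.2 CPM, lay within the other cortical samples (69.3 to 99.7 and 21.9 to 32 CPM). The 4 choroid plexus markers summed to 39.1 CPM in hippocampal tamoxifen sample A and to 7220 to 14700 CPM in the other hippocampal samples. In cortex they ran from 3.82 CPM in tamoxifen sample B to 5950 CPM in tamoxifen sample A. In bulk samples, fewer cells of a type and less RNA per cell cannot be told apart.

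Promoters are shown for 4 members whose tamoxifen samples lay beyond both controls in both regions, Sepn1 and Sytl1 on the lower side and Kif17 and Hmgn2 on the higher side, to let the lower and higher sets be compared by sequence. Each runs 5′ to 3′ on the gene's strand from 250 bases before to 50 after the start annotated by RefSeq on GRCm38.p6, the assembly also called mm10. Capitals mark the letters of the GC box, GGGCGG or its reverse complement CCGCCC, of the E-box CACGTG and of the cAMP response element TGACGTCA, with overlapping matches run together. The windows are chr4:134552117-134552416 (minus strand) for Sepn1, chr4:133263038-133263337 (minus strand) for Sytl1, chr4:138262001-138262300 (plus strand) for Kif17 and chr4:133967942-133968241 (minus strand) for Hmgn2. RefSeq lists Sepn1 as Selenon, and the Kif17 and Hmgn2 windows lie wholly inside the gene bodies as annotated for the counts.
Sepn1: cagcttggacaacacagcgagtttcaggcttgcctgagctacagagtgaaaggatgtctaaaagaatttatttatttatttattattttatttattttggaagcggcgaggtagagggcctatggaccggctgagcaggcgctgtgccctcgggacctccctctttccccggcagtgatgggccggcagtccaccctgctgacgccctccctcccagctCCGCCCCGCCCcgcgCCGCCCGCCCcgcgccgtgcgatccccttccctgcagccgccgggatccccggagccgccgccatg
Sytl1: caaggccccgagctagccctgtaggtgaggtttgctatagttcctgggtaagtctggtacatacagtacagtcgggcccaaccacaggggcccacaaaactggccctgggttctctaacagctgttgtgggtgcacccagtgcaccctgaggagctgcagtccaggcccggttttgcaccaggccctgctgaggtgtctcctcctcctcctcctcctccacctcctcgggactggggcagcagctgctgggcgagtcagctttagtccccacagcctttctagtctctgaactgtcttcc
Kif17: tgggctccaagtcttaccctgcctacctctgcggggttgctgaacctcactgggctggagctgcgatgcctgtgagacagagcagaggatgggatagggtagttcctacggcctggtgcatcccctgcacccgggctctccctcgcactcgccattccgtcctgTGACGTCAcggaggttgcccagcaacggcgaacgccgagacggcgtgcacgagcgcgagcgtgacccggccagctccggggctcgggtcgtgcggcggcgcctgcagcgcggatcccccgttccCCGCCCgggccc
Hmgn2: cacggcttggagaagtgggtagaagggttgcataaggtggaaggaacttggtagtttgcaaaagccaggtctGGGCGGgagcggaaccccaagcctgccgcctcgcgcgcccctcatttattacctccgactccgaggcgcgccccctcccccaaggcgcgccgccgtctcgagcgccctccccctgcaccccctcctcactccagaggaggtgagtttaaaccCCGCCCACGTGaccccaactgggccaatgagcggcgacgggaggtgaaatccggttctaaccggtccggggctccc
The Sytl1 window held none of these motifs, the Sepn1 window 4 GC boxes, the Kif17 window 1 cAMP response element and 1 GC box, and the Hmgn2 window 1 E-box and 2 GC boxes. Of the members, 153 matched 206 RefSeq promoters. Searched on both strands, the GC box was present in 125 of these 206 windows (60.7%) and in 35.7% of all 32851 windows of the same length. The E-box was present in 21 (10.2%, against 7.15% of all) and the cAMP response element in 5 (2.43%, against 1.79%). The estrogen response element GGTCANNNTGACC, searched because tamoxifen acts on estrogen receptors, was in 0 of the 206 windows and in 0.07% of all. The windows of all genes were not held to the count minimum that members passed, so these shares do not compare like sets. The matches are a description of letters in the windows.

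Stmn1 (chromosome 4, 134468320 to 134473843, plus strand), the anchor of the interval, codes for stathmin, which binds tubulin dimers and favours the shortening of microtubules. Its level was 194 and 181 CPM in the cortical controls and 252 and 223 CPM in the cortical tamoxifen samples. In hippocampus it was 122 and 146 CPM in the controls and 128 and 153 CPM in the tamoxifen samples. The cortical tamoxifen samples were both above the controls, while the hippocampal groups overlapped. The log2 fold change of tamoxifen over control was 0.34 (SE 0.15) in cortex and 0.07 (SE 0.15) in hippocampus, and the hippocampal value ranged from -0.07 to 0.20 over 17 other settings. Both control hippocampal samples lay below both control cortical samples, with a log2 fold change of -0.49 (SE 0.15), which did not pass edgeR's test (adjusted p = 0.0967). Of the 50-base words of Stmn1 transcripts, 17.9% are also in the processed copy Gm11223, so reads there could be split between them. The members whose log2 CPM ran most like that of Stmn1 over the 8 samples were Fam76a (Pearson r 0.925), the kinesin gene Kif17 (0.916) and the RNA-binding protein gene Zcchc17 (0.898). These 8 samples share their region and treatment groups, so the values describe likeness only.

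The highest mean levels were those of Camk2n1, an inhibitor of the kinase CaMKII, at 444 RPKM and of Pink1, a kinase that marks damaged mitochondria, at 214 RPKM. Trnp1, which codes for a nuclear protein of cortical progenitors, followed at 76.8 RPKM, then Nudc, which codes for a dynein cofactor, at 70.1 RPKM and Stmn1 at 55.1 RPKM.

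Tamoxifen against control gave 22 of 180 members with an unadjusted p under 0.05 in cortex (12.2%; 4.97% of all 18074 genes tested) and 20 in hippocampus (11.1%; 3.61% of all). Averaged over both regions, 14 members were lower at that level (1.34% of all genes) and 16 were higher (2.29% of all). After edgeR's Benjamini-Hochberg adjustment 0 members passed in cortex (0% of all), 0 in hippocampus (0% of all) and 0 in the average (0.0111% of all). DESeq2 called 2 in the average, Sepn1 and Sytl1 (0.0775% of all). These are the values the interval was picked from. Without cortical tamoxifen sample A, edgeR called 15 members in the average and 4.9% of all genes. The median log2 fold change over members was 0.060 in cortex and -0.034 in hippocampus, beside 0.039 and -0.007 over all genes, and 110 of 180 members were positive in cortex and 83 in hippocampus. The median absolute change of the average was 0.159 over members and 0.132 over all genes.

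The clearest groups are those in which both tamoxifen samples lay beyond both controls in cortex and again in hippocampus. On the lower side there were 13 such members (7.22%; 2.05% of all genes), among them Sepn1, Sytl1, Fam167b, Tmem234, Rcc1, E2f2, Nudc, Phactr4, Marcksl1, Txlna, Tmco4 and Mecr. On the higher side there were 14 (7.78%; 2.98% of all genes), namely Kif17, Hmgn2, Hdac1, Map3k6, 1700003M07Rik, Sh3bgrl3, Tmem39b, Ptpru, AB041806, Ccdc28b, Emc1, Zcchc17, Trnp1 and Hp1bp3. Another 8 members lay on opposite sides in the 2 regions (4.44%; 7.77% of all genes). When the 16 libraries were set side by side instead of the 8 samples, 9 of the 13 lower and 2 of the 14 higher members still did not overlap (0.316% and 0.424% of all genes). With library totals in place of TMM, 8 of the 13 and 9 of the 14 did not, where 8 lower and 12 higher members met the condition in all (1.18% and 2.82% of all genes). Without cortical tamoxifen sample B, with 1 cortical tamoxifen sample left, 25 members met the condition on the lower side and 21 on the higher side (4.57% and 5.65% of all genes).

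**Figure D1:**
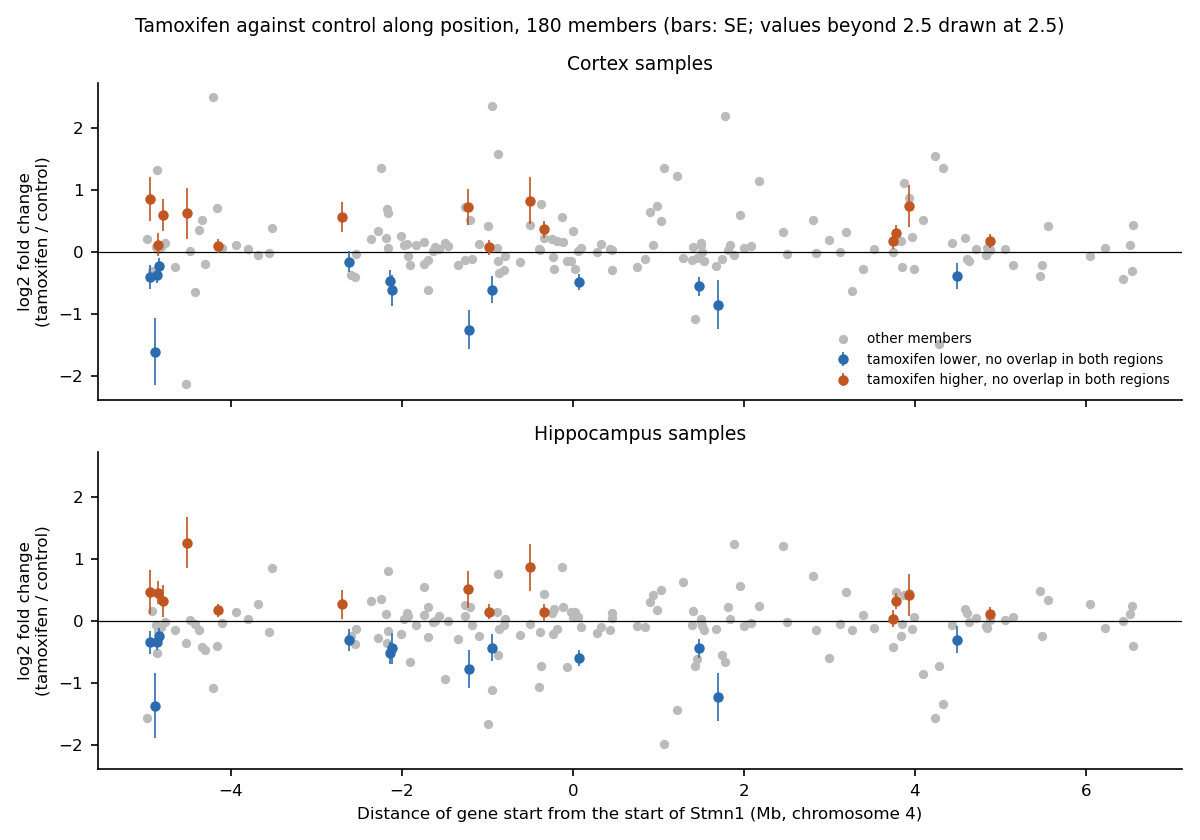
Log2 fold change of tamoxifen over control (y axis) for the 180 members against the distance of each gene start from the start of Stmn1 (x axis, Mb), in cortex (top) and hippocampus (bottom). Blue marks the 13 members lower and orange the 14 higher without overlap in both regions, bars are SE, and values beyond 2.5 are drawn at 2.5. Blue and orange points alternate along the interval.

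Sepn1 (134537892 to 134552166, minus strand), which codes for selenoprotein N of the endoplasmic reticulum, had the smallest unadjusted p of the lower members. Its level was 16.6 and 18.0 CPM in cortical controls against 13.3 and 11.3 CPM in cortical tamoxifen samples. In hippocampus it was 23.7 and 25.3 CPM in controls against 16.3 and 16.4 CPM. All 4 tamoxifen samples lay under the controls of their region. The tamoxifen level was 0.713 times the control level in cortex (log2 fold change -0.49, SE 0.13) and 0.666 times in hippocampus (-0.59, SE 0.13). Over 17 other settings the log2 fold change kept its sign, from -0.62 to -0.30 in cortex and from -0.63 to -0.54 in hippocampus.

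Sytl1 (133253090 to 133263113, minus strand) codes for a synaptotagmin-like protein that binds the vesicle GTPase Rab27. It stood at 4.39 and 4.79 CPM in cortical controls and at 2.32 and 1.55 CPM in cortical tamoxifen samples. The hippocampal controls were at 6.59 and 8.55 CPM and the hippocampal tamoxifen samples at 3.30 and 5.58 CPM. The gap was wide in cortex and narrower in hippocampus, where tamoxifen sample B came near control sample A. The log2 fold change was -1.25 (SE 0.32) in cortex and -0.77 (SE 0.31) in hippocampus.

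Averaged over regions, Fam167b and E2f2 had the largest fold differences among the 13, at low levels. Fam167b stood at 1.57 and 2.55 CPM in cortical controls, 0.928 and 0.431 CPM in cortical tamoxifen samples, 1.98 and 4.48 CPM in hippocampal controls and 1.44 and 1.07 CPM in hippocampal tamoxifen samples. The controls of this gene differed among themselves in both regions, by more in hippocampus. E2f2, a transcription factor of the cell cycle, stood at 1.02 and 1.20 CPM in cortical controls, 0.565 and 0.660 CPM in cortical tamoxifen samples, 1.57 and 3.31 CPM in hippocampal controls and 1.14 and 0.966 CPM in hippocampal tamoxifen samples. Their log2 fold changes were -1.61 (SE 0.54) and -0.85 (SE 0.39) in cortex and -1.36 (SE 0.52) and -1.21 (SE 0.38) in hippocampus.

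Among the other lower members, Nudc was the most abundant per length. It stood at 221 and 266 CPM in cortical controls, 188 and 131 CPM in cortical tamoxifen samples, 136 and 170 CPM in hippocampal controls and 107 and 121 CPM in hippocampal tamoxifen samples. The lowest cortical value was that of tamoxifen sample B, the sample that stood apart. Of the 50-base words of Nudc, 30.3% are also in other genes, chiefly Nudc-ps1, so its count is uncertain. Rcc1, the exchange factor that loads Ran on chromatin, was 0.722 times the control level in cortex and 0.703 times in hippocampus, but overlaps the noncoding gene Snhg3 on the same strand. Tmem234 was 0.770 and 0.792 times the control level and shares 10.6% of its words with other genes, chiefly Iqcc. Phactr4, which binds actin and protein phosphatase 1, was at 0.651 and 0.739 times the control level. Marcksl1, an actin-binding membrane protein gene, was at 0.754 and 0.792 times. The smallest differences were those of Txlna (log2 fold change -0.23 and -0.24), Tmco4 (-0.39 and -0.29) and Mecr (-0.15 and -0.29), and the cortical value of Mecr, an enzyme of mitochondrial fatty acid synthesis, turned to 0.05 with library totals in place of TMM.

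Kif17 (138250435 to 138301967, plus strand) codes for a dendritic kinesin that carries vesicles with NMDA receptors. Its level was 15.6 and 14.4 CPM in cortical controls and 17.5 and 19.7 CPM in cortical tamoxifen samples. In hippocampus it was 6.60 and 5.87 CPM in controls and 7.71 and 8.01 CPM in tamoxifen samples. Both tamoxifen samples exceeded both controls in each region, by 1.24 times in cortex (log2 fold change 0.31, SE 0.13) and 1.26 times in hippocampus (0.33, SE 0.13). Its gene body as annotated in the files overlaps that of Sh2d5 on the same strand, so reads in the shared part could be counted for neither.

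Hmgn2 and Hdac1 are chromatin genes among the higher members. Hmgn2 (133964738 to 133968650, minus strand), which codes for a nucleosome-binding protein, stood at 14.7 and 6.23 CPM in cortical controls against 17.2 and 19.9 CPM in tamoxifen samples. Its hippocampal controls were at 14.4 and 10.2 CPM and its hippocampal tamoxifen samples at 25.1 and 20.1 CPM. Control sample B was the lowest in each region. Hdac1 (129516104 to 129542713, minus strand), a histone deacetylase gene, stood at 7.45 and 3.80 CPM in cortical controls, 12.8 and 7.57 CPM in cortical tamoxifen samples, 13.2 and 10.3 CPM in hippocampal controls and 16.5 and 16.2 CPM in hippocampal tamoxifen samples. In cortex, tamoxifen sample B of Hdac1 barely exceeded control sample A. Both counts are uncertain, since 25.4% of the words of Hmgn2 and 35.5% of those of Hdac1 are in other genes, chiefly Gm10282 and Gm10093.

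Map3k6, a stress kinase gene, was 1.65 times the control level in cortex and 1.43 times in hippocampus. The lincRNA gene 1700003M07Rik stood at 4.83 and 2.82 CPM in cortical controls, 6.28 and 5.51 CPM in cortical tamoxifen samples, 3.20 and 1.42 CPM in hippocampal controls and 5.92 and 5.21 CPM in hippocampal tamoxifen samples. Its difference was the largest of the 14 in hippocampus, at 2.41 times. Ptpru, a receptor tyrosine phosphatase gene, was 1.47 and 1.21 times the control level, with its highest value, 26.6 CPM, in cortical tamoxifen sample B. Several of the 14 differed little: Trnp1 by 1.05 and 1.12 times, Zcchc17 by 1.07 and 1.13 times, Emc1 of the endoplasmic reticulum membrane complex by 1.13 and 1.08 times, and Hp1bp3, a heterochromatin protein gene, by 1.14 and 1.03 times. The counts of Emc1, AB041806 and Sh3bgrl3 are uncertain too. Of their words 28.42, 43.34 and 16.95% are in other genes, chiefly 2700016F22Rik, Fam43b and Ubxn11, and Emc1 overlaps Ubr4 on the same strand.

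**Figure D2:**
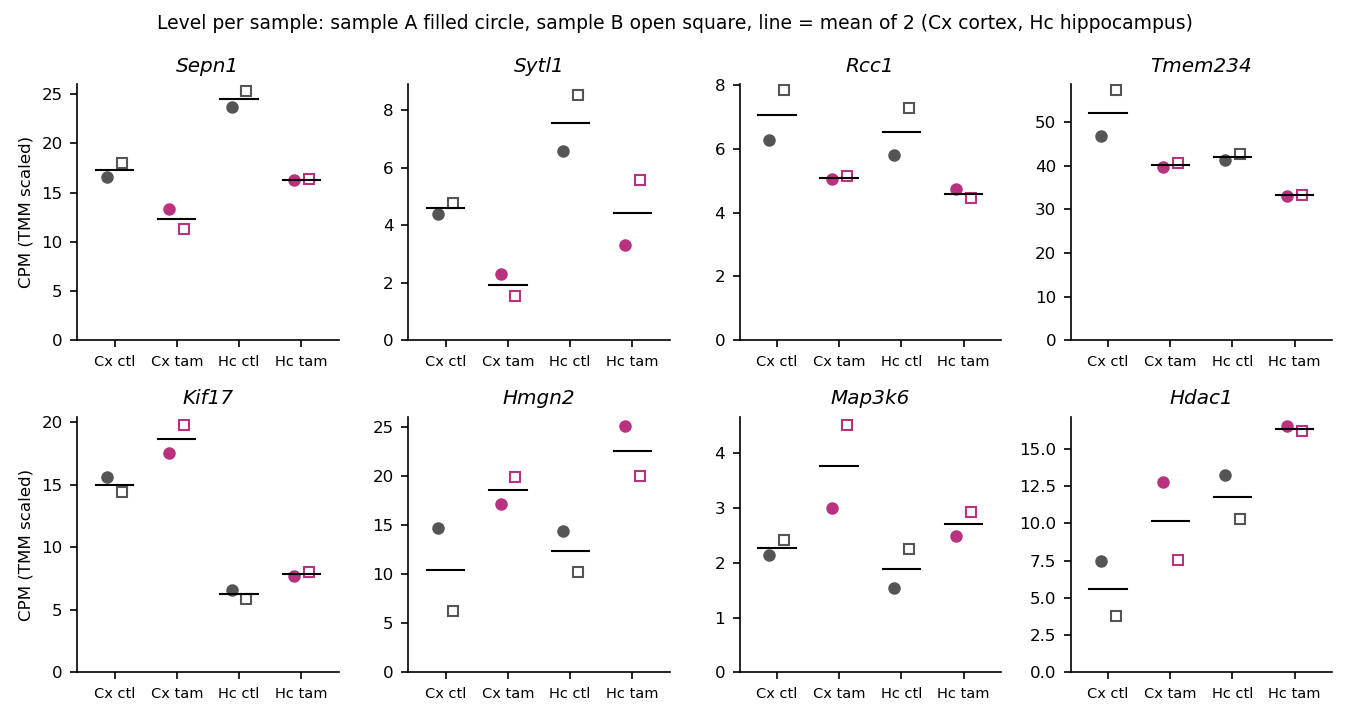
CPM per sample (y axis, from 0) of 4 lower (top) and 4 higher (bottom) members in the 4 groups, with sample A as filled circles, sample B as open squares and the mean of 2 as a line; controls are grey and tamoxifen samples magenta. For each gene both tamoxifen samples lie on the same side of both controls in each region, by a narrow margin for Hdac1 in cortex.

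Another 10 members had an unadjusted p under 0.05 in the average while their groups overlapped in at least 1 region, among them Themis2 and Sh2d5, and the rule for named genes takes 5 of them for their small p. Snhg12, a host of small nucleolar RNAs, was at 18.9 and 12.6 CPM in cortical controls, 30.4 and 18.7 CPM in cortical tamoxifen samples, 14.4 and 9.62 CPM in hippocampal controls and 20.8 and 21.3 CPM in hippocampal tamoxifen samples. Only the cortical groups of Snhg12 overlapped, by a narrow margin. Wnt4, a secreted Wnt ligand gene, was 1.43 times the control level in cortex and 1.67 times in hippocampus. Rcan3, a calcineurin regulator gene, was at 1.08 and 1.34 times, and Nipal3 at 1.67 and 1.13 times. Spocd1, at the count minimum, was at 0.228 and 0.789 times the control level.

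By position, the lower and higher members were mixed. Of 26 neighbouring pairs among these 27 members 15 were on opposite sides and 11 on the same side. Marcksl1 (lower) and Hdac1 (higher) start 2.5 kb apart, Ccdc28b (higher) and Txlna (lower) 6.8 kb apart, and Map3k6 (higher) and Sytl1 (lower) 12.3 kb apart. The densest stretch was the first, from 5 to 4 Mb before Stmn1, with 4 lower and 5 higher of 26 members. From 5 to 7 Mb after Stmn1, 0 of 11 members were in either set. Over all genes the shares were 2.05% lower and 2.98% higher, so 0 is unremarkable for 11 members. Along the whole of chromosome 4, in 5 Mb bins, 22 of 106 genes (20.8%) had an unadjusted p under 0.05 in the average from 5 to 0 Mb before Stmn1, and 10 of 89 (11.2%) from 0 to 5 Mb after it. The neighbouring bins held 1 of 79 and 4 of 51, and the share over all genes was 3.62%. Shares of 25% were also reached by bins with few genes, 5 of 20 from 50 to 45 Mb before Stmn1 and 3 of 12 from 25 to 20 Mb before it.

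**Figure D3:**
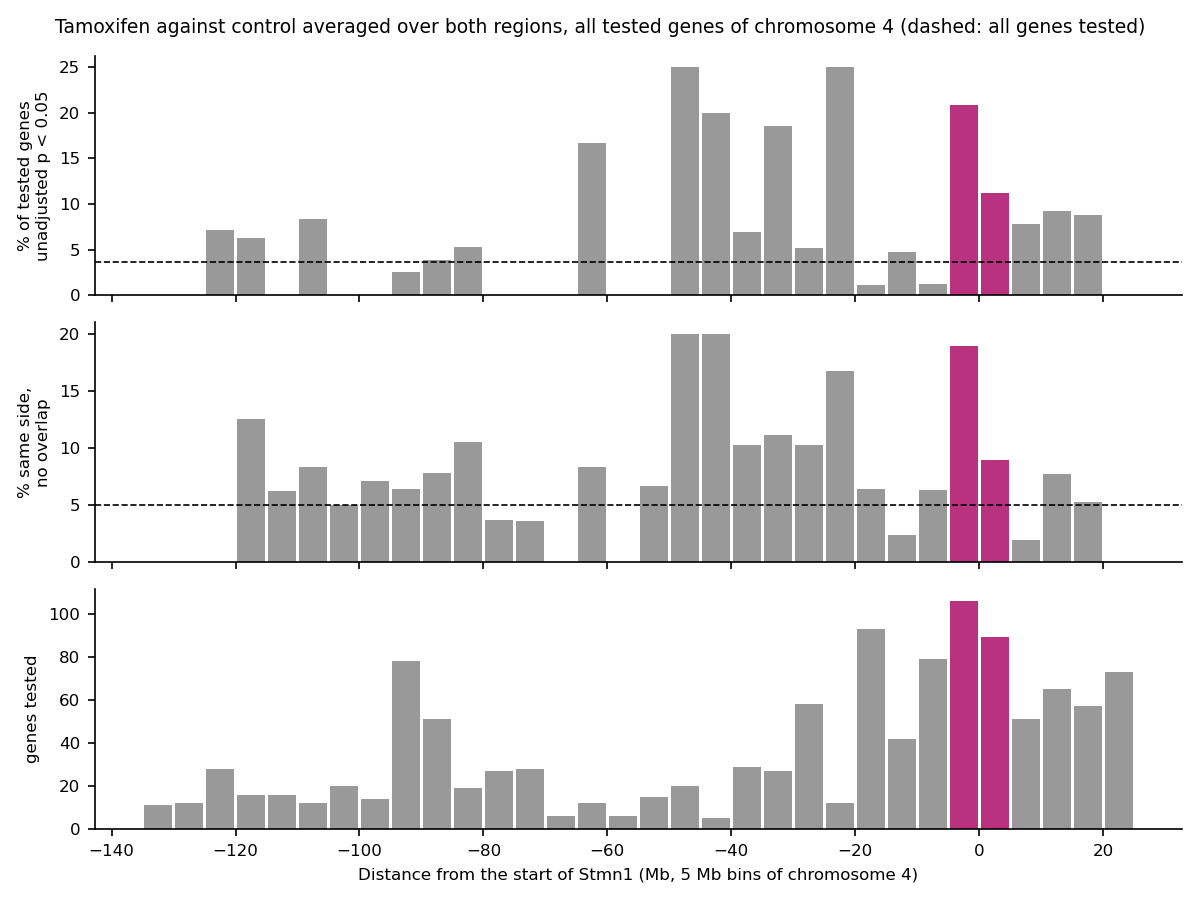
Shares of tested genes of chromosome 4 in 5 Mb bins (x axis, Mb from the start of Stmn1) with an unadjusted p under 0.05 in the average over regions (top) and with groups that do not overlap on the same side in both regions (middle), and the number of genes tested (bottom). The bins from -5 to 5 Mb are magenta and the dashed line is the share over all 18074 genes. The bin from -5 to 0 Mb stands at 20.8% over 106 genes, and the higher bins hold 20 genes or fewer.

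At the ends of the interval, the members just inside were Fam229a and Marcksl1 (log2 fold change of the average -0.68 and -0.37) and Mfap2 and Crocc (-0.03 and 0.02). The genes just outside were Zbtb8b and Bsdc1 (0.57 and 0.10) and Necap2 and Spata21 (-0.03 and 0.34). At the count minimum, Spocd1 and 1810019J16Rik had 10 counts in 4 libraries (-1.24 and 0.63), and Padi6 and Runx3, just under it, in 3 libraries (2.19 and -0.71).

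Hippocampus against cortex was a comparison that the choice of the interval did not use. In controls, edgeR called 13 of 180 members at an adjusted p under 0.05, 9 lower in hippocampus (5%; 3.48% of all genes) and 4 higher (2.22%; 2.71% of all). The lower members were Camk2n1, Kif17, Oprd1, Htr1d, Sh2d5, Myom3, Arhgef10l, Cd164l2 and 9130020K20Rik, and the higher members Laptm5, Ptafr, Themis2 and Asap3. Htr1d met the count minimum only in cortical libraries, so its place among the lower members rests partly on that filter. In tamoxifen samples edgeR called 3 members, Camk2n1 and Kif17 lower (1.11%; 0.692% of all genes) and Themis2 higher (0.556%; 0.426% of all), each also called in controls. All 13 had the same sign in the tamoxifen samples, with an unadjusted edgeR p under 0.05. Over all genes, 21.6% had such a p there, and the share among all genes called in controls was not taken. Both comparisons share 1 estimate of spread, and which samples share an animal is not stated. With plain sums of gene rows in place of TMM, which moved the median of all genes by 0.384 here, the split in controls turned to 3 lower (Camk2n1, Htr1d and 9130020K20Rik; 0.852% of all genes) and 16 higher (10.6% of all), with 7 of the 13 still called. The 6 that lost their call were Kif17 (edgeR adjusted p = 0.0552), Myom3 (0.0562), Oprd1 (0.0823), Cd164l2 (0.103), Sh2d5 (0.163) and Arhgef10l (0.250), each still lower in sign, and 0 members were called in tamoxifen samples. The count in controls was 0 without any one of the 4 control samples, 3 without either hippocampal tamoxifen sample (2.15 and 2.3% of all genes called) and 37 without either cortical tamoxifen sample (20.7% of all). The count in tamoxifen samples was 45 without cortical tamoxifen sample A (21.7% of all genes), 2 without B (1.85%) and 0 without any one of the other 6 samples.

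Camk2n1 (138454314 to 138460123, plus strand) had a level of 6247 and 5806 CPM in cortical controls and 5973 and 3983 CPM in cortical tamoxifen samples. In hippocampus it stood at 1478 and 1377 CPM in controls and 1691 and 1318 CPM in tamoxifen samples. All hippocampal samples lay far below all cortical samples, of which tamoxifen sample B was the lowest. On the log2 scale hippocampus over cortex was -2.08 (SE 0.26, edgeR adjusted p = 0.0197) in controls and -1.73 (SE 0.26, edgeR adjusted p = 0.0397) in tamoxifen samples. Kif17, whose levels are given above, was lower in hippocampus too, at -1.27 on the log2 scale (SE 0.13) in controls and -1.24 (SE 0.13) in tamoxifen samples, with edgeR adjusted p of 0.0177 and 0.0276. The region difference of Kif17 was thus larger than its tamoxifen difference of 0.31 and 0.33.

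Oprd1 (132110726 to 132144486, minus strand), the delta opioid receptor gene, stood at 5.12 and 5.94 CPM in cortical controls, 4.99 and 7.85 CPM in cortical tamoxifen samples, 1.76 and 2.21 CPM in hippocampal controls and 2.66 and 2.35 CPM in hippocampal tamoxifen samples. No hippocampal sample reached a cortical one. Its log2 fold change between regions was -1.48 (SE 0.26) in controls, with an edgeR adjusted p of 0.0334. Htr1d, a serotonin receptor gene, was at 0.324 to 0.463 CPM in cortical controls and 0.0167 to 0.0170 CPM in hippocampal controls, near the level of single reads. It had 10 counts in 6 libraries, all cortical, and so was a member only through the region where it was high. Sh2d5, which codes for an adaptor protein of synapses, was lower by -1.08 (SE 0.19, edgeR adjusted p = 0.0331), and overlaps Kif17. Myom3, better known from muscle, was lower by -1.61 (SE 0.27, edgeR adjusted p = 0.0312), and Arhgef10l by -0.80 (SE 0.15, edgeR adjusted p = 0.0341).

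Laptm5 (130913125 to 130936141, plus strand) codes for a lysosomal membrane protein of blood-derived cells and microglia. It stood at 82.0 and 90.7 CPM in cortical controls, 86.5 and 84.0 CPM in cortical tamoxifen samples, 141 and 199 CPM in hippocampal controls and 161 and 140 CPM in hippocampal tamoxifen samples. The log2 fold change between regions was 0.98 (SE 0.18, edgeR adjusted p = 0.0360) in controls. Ptafr, the receptor of platelet activating factor, was higher by 1.63 (SE 0.30, edgeR adjusted p = 0.0357) and Themis2, a signalling protein gene of myeloid and B cells, by 1.25 (SE 0.26, edgeR adjusted p = 0.0406). For these genes hippocampal control sample B was the highest. The 5 microglial markers moved with them as a sum. They summed to 475 to 580 CPM in the cortical samples, to 880 and 1360 CPM in the hippocampal controls and to 829 and 973 CPM in the hippocampal tamoxifen samples. Of these markers 4 of 5 were called higher in control hippocampus and 0 of 5 were at 0. Aif1 overlapped between regions, at 13.7 CPM in hippocampal control sample A and 15 CPM in cortical control sample B. The part of microglia in the level of Laptm5, Ptafr and Themis2 was not tested. Asap3, an Arf GTPase activator gene, was higher by 1.07 (SE 0.21, edgeR adjusted p = 0.0386). Rps6ka1, a growth factor kinase gene, stood at 0.76 on the same scale (SE 0.18) and did not pass (edgeR adjusted p = 0.0573).

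**Figure D4:**
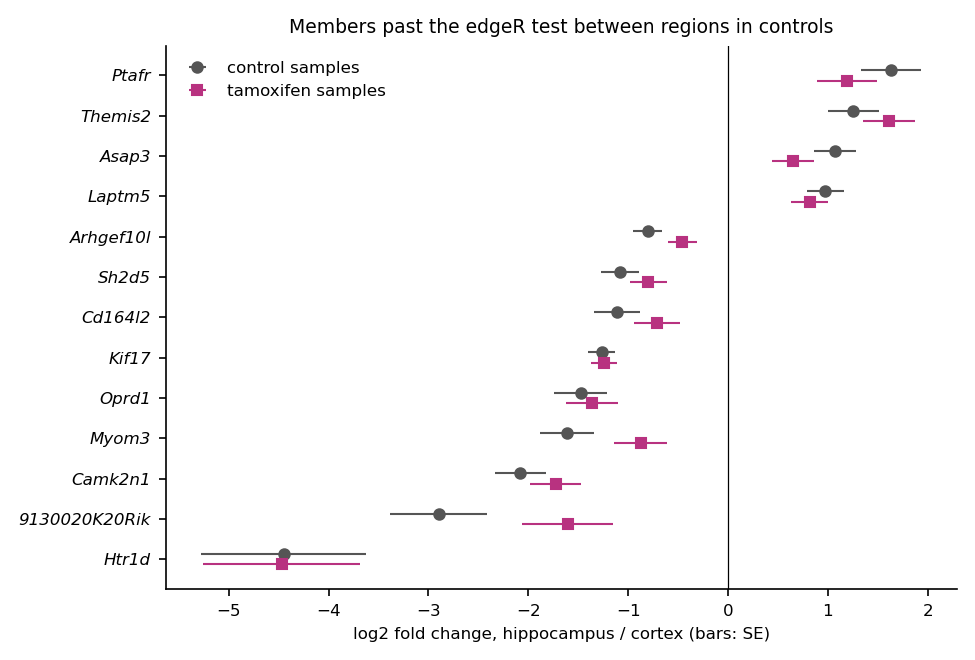
Log2 fold change of hippocampus over cortex (x axis) with SE for the 13 members called in controls, in control samples (grey circles) and in tamoxifen samples (magenta squares). Each gene has the same sign in both, from Htr1d at about -4.45 to Ptafr at 1.63 in controls. Htr1d met the count minimum only in cortical libraries.

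**Figure D5:**
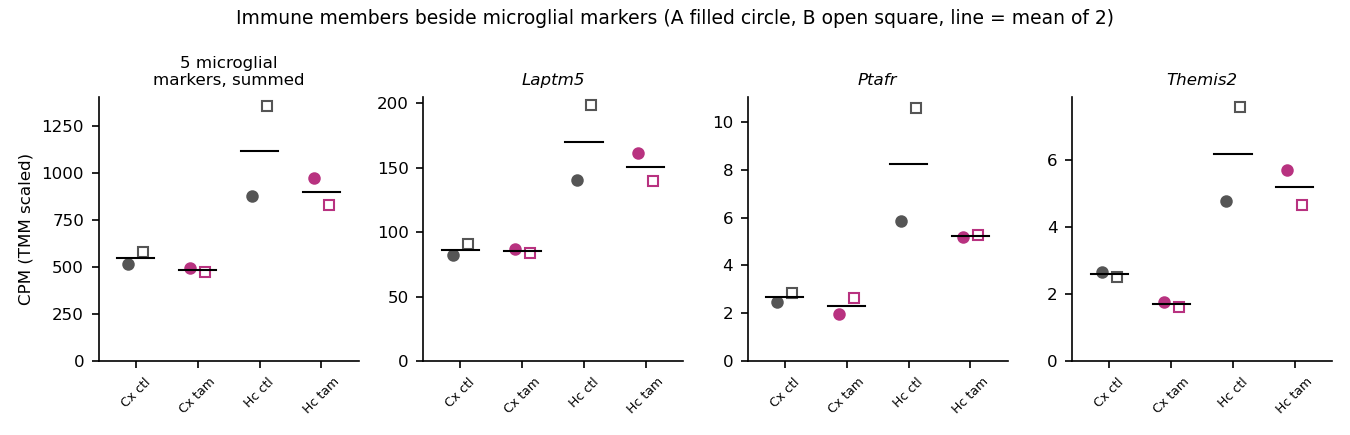
CPM per sample (y axes, from 0) of the 5 summed microglial markers and of Laptm5, Ptafr and Themis2 in the 4 groups, with sample A as filled circles, sample B as open squares and the mean of 2 as a line. All hippocampal samples lie above all cortical samples in each panel, and hippocampal control sample B is the highest.

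The difference of the tamoxifen effects between hippocampus and cortex was tested next. DESeq2 gave 0 and 7 members at the adjusted and unadjusted thresholds (0.0498 and 6.06% of all genes). With edgeR, 0 of 180 members passed the adjusted threshold (0% of all genes) and 4 had an unadjusted p under 0.05 (2.22%, against 5.43% of all). The 4 were Crocc, Ythdf2, Fabp3 and Dcdc2b, each higher in cortex and lower in hippocampus with tamoxifen, and each with an edgeR adjusted p of 0.889. Crocc, which codes for the ciliary rootlet protein, stood at 19.2 and 15.3 CPM in cortical controls, 25.2 and 21.7 CPM in cortical tamoxifen samples, 28.7 and 22.4 CPM in hippocampal controls and 16.1 and 22.5 CPM in hippocampal tamoxifen samples. Its lowest hippocampal value was in tamoxifen sample A, in which the choroid plexus markers were at 39.1 CPM and the 3 ependymal markers at 3.31 CPM, while the remaining hippocampal samples had 22.2 to 34 CPM of the latter, with 0 of these markers at 0 in all samples. Their part in the Crocc value was not tested. The number of members with an unadjusted p under 0.05 depended on single samples, as did the number over all genes. Over 17 other settings the log2 fold change of Crocc ran from 0.29 to 0.63 in cortex and from -0.67 to -0.18 in hippocampus. Ythdf2, a reader of methylated adenosine in RNA, had log2 fold changes of 0.33 (SE 0.16) in cortex and -0.27 (SE 0.16) in hippocampus. Fabp3, a fatty acid binding protein gene, had 0.71 (SE 0.31) and -0.39 (SE 0.31), with its highest value, 16.04 CPM, in cortical tamoxifen sample B.

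By role, the 21 measured genes of neuronal receptors, adhesion and membrane signalling had 0 members in the lower and 2 in the higher set, Ptpru and Map3k6. Their median log2 fold change of tamoxifen over control was 0.22 in cortex, with 16 of 21 positive, and 0.25 in hippocampus, with 17 of 21 positive, beside 0.039 and -0.007 over all genes. Between regions 4 of the 21 were called lower in control hippocampus (Camk2n1, Oprd1, Htr1d and Sh2d5) and 0 higher, of which Oprd1 and Sh2d5 were not called with plain sums of gene rows. Htr1d was a member only through its cortical libraries. The pan-neuronal markers were higher in cortical tamoxifen sample B, at 1830 CPM, than in the remaining cortical samples, at 767 to 876 CPM. In hippocampus they were at 364 and 390 CPM in controls and 512 and 451 CPM in tamoxifen samples. The inhibitory neuron markers stood at 58.9 and 65.1 CPM in controls and 96.5 and 80.7 CPM in tamoxifen samples. Both sums were thus higher in both tamoxifen samples, though Rbfox3 and Tubb3 of the pan-neuronal list overlapped. The excitatory neuron markers overlapped as a sum, at 5580 and 5610 CPM in hippocampal controls and 6680 and 4920 CPM in tamoxifen samples. The part of neuron markers in the level of these receptor genes was not tested.

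The 17 cytoskeleton genes had 3 lower members (Nudc, Phactr4 and Marcksl1) and 1 higher (Kif17), with medians of -0.01 in cortex, which turned to 0.20 with plain sums of gene rows, and -0.08 in hippocampus. The 21 genes of chromatin, transcription and DNA repair had 2 lower (Rcc1 and E2f2) and 4 higher (Hmgn2, Hdac1, Trnp1 and Hp1bp3). The 17 genes of mitochondria and metabolism had 2 lower, Mecr among them, and 0 higher. Pink1 stood at 663 to 1193 CPM in cortex and 747 to 1052 CPM in hippocampus, with overlapping groups in both regions. The 19 genes of RNA processing and translation had 0 lower and 1 higher (Zcchc17), the 17 of glycosylation, endoplasmic reticulum and matrix 1 and 1 (Sepn1 and Emc1), and the 18 of ubiquitin, trafficking and lysosome 2 and 0 (Sytl1 and Txlna). The 9 immune cell genes had none in either set. Their median log2 fold change was 0.03 in cortex and -0.65 in hippocampus, where 1 of 9 was positive, and 1.22 for control hippocampus over control cortex, where 2 of 9 were negative. The summed microglial markers were likewise highest in hippocampal control sample B, at 1360 CPM.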

How the data were processed

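RNA was extracted with Trizol and checked on a Bioanalyser, per the labels' protocols, and the submitters' processing notes name STAR, HTSeq and mm10. Versions, annotation release, strand setting and neuron isolation were not given in the labels or headers. The authors' count column holds whole reads per gene without normalization. The deposited RPKM, per the file headers, divides it by exon length and library total; 99.997% of the values were recomputed, and RPKM entered no test. Members and gene lists were chosen with earlier results of these data known.

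Libraries held 33236178 to 57195203 counts in genes; reads in no gene, 35.53 to 42.5% of all counts, stayed out. Differences within the 8 neighbouring library pairs were 3.53 to 3.98 times the Poisson variance, against 6.21 to 19.1 times in the 16 others, so neighbours were added. Library sizes were the sums of gene rows with TMM factors, with plain sums as an alternative. Genes kept by filterByExpr (18074, with all 180 members) were fitted with a mean per group over 8 samples in edgeR 4.0.16 (R 4.3.3; robust quasi-likelihood test), with Benjamini-Hochberg adjustment over all genes at 0.05. SE is the size of the log2 fold change over the square root of F. The fit was tested on simulated data. Alternatives were DESeq2 1.42.0, 16 separate libraries, other scalings and filters, blocks by sample letter, a 2 Mb flank and leaving out each sample. Named genes were Stmn1, up to 10 members per direction of smallest p in the average with 1 sign in both regions, all members without overlap on the same side, up to 5 per direction between control regions at a mean CPM of at least 1, the 5 of highest RPKM, the 3 of smallest p for the difference and the 3 most like Stmn1. Dcdc2b, Htr1d, Arhgef10l, Cd164l2 and 9130020K20Rik were named after their values were seen. The role lists had 2 older symbols added to match the files. One member that the rule for named genes takes is not reported here.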

Additional observations from a re-analysis of the deposited data

How the results depend on the processing

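With 16 separate libraries, whose p-values are too small if neighbours are repeats of 1 sample, members with an unadjusted p under 0.05 for tamoxifen against control numbered 55 in cortex, 49 in hippocampus, 66 in the average and 34 in the difference of effects (22.7, 17.6, 18.6 and 20.2% of all genes). Adjusted calls then numbered 15, 7, 17 and 4 (3.36, 1.9, 0.794 and 5.18% of all). Region calls numbered 78 in controls and 65 in tamoxifen samples (41.7 and 32.9% of all), and higher members without overlap 2 (0.424% of all). DESeq2 gave 2 adjusted calls in the average (0.0775% of all), 7 unadjusted in the difference (6.06%), and 38 and 22 region calls (17.7 and 10.8%). Plain sums of gene rows moved the median of all genes by 0.209 in cortex, 0.384 between control regions and -0.243 in the difference. They gave 19 region calls in controls (11.4% of all genes), 3 lower and 16 higher (0.852 and 10.6% of all) against 9 and 4. Unadjusted members then numbered 13 in hippocampus, 18 in the average and 7 in the difference (2.17, 2.57 and 4.55% of all). There were 0 region calls in tamoxifen samples (0.144% of all) and 8 lower members without overlap (1.18%). Region calls in tamoxifen samples numbered 7 without a filter (1.99% of all genes) and 1 with upper quartile scaling (0.769%). A flank of 2 Mb left 97 members, 9.3% of them without overlap on the same side in both regions, against 15% of the 180. Over all genes 2.05% were lower and 2.98% higher in this way.

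Whether the sample letters pair the samples is not stated. Correlations of B minus A between groups ran from -0.405 to 0.283, and those with hippocampal tamoxifen were all negative (-0.388, -0.405 and -0.24). Samples also differ in their cell type markers, so these values cannot decide on a pairing. A replicate block by letter gave 2 region calls in controls (0.398% of all genes) and 0 in tamoxifen samples (0%). The crossed pairing gave 25 and 1 (11.3 and 0.669% of all), with 12 unadjusted members in the difference (8.02%). The block rests on a letter alone.

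Leaving out 1 sample at a time gave unadjusted counts of 4 to 53 in cortex, 2 to 31 in hippocampus, 14 to 57 in the average and 0 to 29 in the difference. Adjusted counts were 0 to 23 in cortex, 0 to 15 in the average, 0 to 37 between control regions and 0 to 45 between tamoxifen regions. Members without overlap numbered 14 to 27 lower and 14 to 26 higher (3.46 to 7.74% and 4.04 to 11% of all genes). In these fits a lone sample is assumed to vary like the other groups. The shares of all genes under the unadjusted and adjusted thresholds changed from fit to fit too. The ranges of counts therefore cannot by themselves set the members apart from all genes. Of the named genes' tamoxifen values averaged over regions and region differences under alternatives, 876 stayed on their side of the threshold or within the spread, 61 lost and 7 gained the threshold and 24 moved; 10 had another sign. Of their 1598 values within a region 23 had another sign, among them Laptm5, Pink1 and Stmn1. Members of a few reads, such as Htr1d, are limited by depth.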
